A study of Mus musculus with 6 samples.

Results

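The GADD45 genes examined here are 4 of the 55573 genes in the deposited expression table, chosen by gene name: Gadd45a, Gadd45b, Gadd45g and Gadd45gip1. All 4 had a mean of at least 1 FPKM (fragments per kilobase of exon, scaled to the mapped reads of the library) over the 6 libraries and so entered the test with 9534 other genes. PolyA RNA was sequenced from liver of generation 3 mice on normal feed. The p21TKO mice (p21-/-, mTR-/- and Wrn-/-) gave 3 libraries and the DKO mice (mTR-/- and Wrn-/-) gave 3. Both groups thus share the loss of mTR, the telomerase RNA gene, and of Wrn, which encodes a RecQ helicase. In addition the p21TKO mice lack p21, the cyclin-dependent kinase inhibitor encoded by Cdkn1a. The submitters describe the p21TKO mice as already progeroid, and their stated question was which pathways change when p21 is lost. Strain, sex and whether each library came from its own animal are not stated in the labels, and the code 2M, which all 6 titles carry in the place of an age, is not explained. The p-values therefore measure the spread between libraries.

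GADD45 proteins are small, acidic proteins without enzyme activity that act by binding other proteins. They were found as products of genes induced by growth arrest and DNA damage. They bind and open the kinase MAP3K4 upstream of p38 and JNK, they bind PCNA and p21, they can inhibit the CDK1 and cyclin B1 complex, and they have been linked to active DNA demethylation through TDG and TET enzymes. Gadd45a is a classic p53 target, Gadd45b is an immediate early and NF-kB target that rises in the regenerating liver, and Gadd45g responds to cytokines and growth signals. Gadd45gip1 is not a family member by sequence. It encodes CRIF1, a GADD45-binding protein that is also a subunit of the large mitochondrial ribosomal particle near its exit tunnel.

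The promoter sequences are shown because Gadd45b was high in other libraries than Gadd45a and Gadd45g. These windows are where sequence motifs for transcription factors are usually sought, and a link of motifs to the library pattern was not tested. Each is the stretch of 250 bases before the RefSeq start site (GRCm38.p6), written 5′ to 3′ on the gene's own strand, with motif matches in capitals. The Gadd45a window is chr6:67037408-67037657 (minus strand), the Gadd45b window is chr10:80929841-80930090 (plus strand) and the Gadd45g window is chr13:51846425-51846674 (plus strand).
Gadd45a: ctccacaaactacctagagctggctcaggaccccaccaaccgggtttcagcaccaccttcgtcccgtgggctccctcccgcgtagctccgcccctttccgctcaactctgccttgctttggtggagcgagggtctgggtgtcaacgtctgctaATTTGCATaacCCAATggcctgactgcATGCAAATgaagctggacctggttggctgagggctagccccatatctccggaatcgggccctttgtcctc
Gadd45b: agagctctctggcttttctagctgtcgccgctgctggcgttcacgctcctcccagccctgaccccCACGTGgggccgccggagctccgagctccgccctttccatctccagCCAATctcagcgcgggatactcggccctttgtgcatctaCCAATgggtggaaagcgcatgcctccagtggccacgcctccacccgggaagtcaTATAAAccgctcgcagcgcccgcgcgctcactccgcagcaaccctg
Gadd45g: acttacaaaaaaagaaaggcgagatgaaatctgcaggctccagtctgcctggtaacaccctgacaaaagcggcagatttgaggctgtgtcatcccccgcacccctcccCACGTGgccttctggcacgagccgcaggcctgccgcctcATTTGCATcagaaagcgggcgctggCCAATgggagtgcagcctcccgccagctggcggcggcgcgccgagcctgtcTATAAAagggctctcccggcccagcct

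The motifs searched on both strands were the octamer ATGCAAAT (ATTTGCAT on the other strand), the CCAAT box CCAAT, the TATA box TATAAA, the E-box CACGTG and the cyclic AMP element TGACGTCA, and no matches overlapped each other. Gadd45a held the octamer 2 times, at -97 to -90 and at -70 to -63 from the start site, with a CCAAT box between them at -86 to -82. The Gadd45g window held 1 octamer at -103 to -96, followed by a CCAAT box at -78 to -74. The octamer, bound by OCT-1, was present in 1.61% of the windows of 27025 genes, while the CCAAT box was in 34.5%. Gadd45b held no octamer and had 2 CCAAT boxes, at -139 to -135 and -100 to -96. A TATA box stood at -46 to -41 in Gadd45b and at -27 to -22 in Gadd45g (13% of windows), and both also had an E-box (6.05% of windows). The cyclic AMP element (1.62% of windows) had no match in these 3 windows, which says only that those letters are not there.

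The FPKM denominators corresponded to 19363285 to 27061291 reads in p21TKO and 21516837 to 24027502 reads in DKO. Libraries did not separate cleanly by label: the first principal component (57.2% of the variance) put p21TKO replicates 2 and 3 at 44.4 and 56.6 and the other 4 libraries between -34.6 and -7.7. Results that rest on p21TKO replicate 1, or on p21TKO replicates 2 and 3, are therefore given with and without replicate 1. Of the deleted genes, Wrn stood at 0.279, 0.224 and 0.214 FPKM in p21TKO, against 0.197, 0.294 and 0.278 FPKM in DKO, and Cdkn1a is described with the cell cycle partners.

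In liver, Gadd45g was by far the most abundant of the 4 genes in every library, and the order below it differed between libraries. Its mean of 65.8 FPKM exceeded that of 92.9% of the genes tested. Gadd45gip1 averaged 8.18 FPKM, Gadd45b 4.04 FPKM and Gadd45a 2.30 FPKM, which placed them above 64.2%, 43.9% and 26.4% of tested genes. FPKM is a value per length, so these levels can be set beside each other. In p21TKO replicates 2 and 3 the order was Gadd45g, Gadd45b, Gadd45gip1, Gadd45a. In p21TKO replicate 1 and all 3 DKO libraries it was Gadd45g, Gadd45gip1, Gadd45a, Gadd45b. The average levels of Gadd45a and Gadd45b are neighbours whose values overlapped across libraries, as were those of Gadd45b and Gadd45gip1.

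Gadd45b stood higher in all 3 p21TKO libraries than in any DKO library, but the size of the gap came from p21TKO replicates 2 and 3, and it did not pass the test. Gadd45b (ENSMUSG00000015312, chromosome 10, 80930073 to 80932204, plus strand, GRCm38) stood at 1.53, 8.42 and 11.1 FPKM in p21TKO replicates 1 to 3, against 0.655, 1.29 and 1.22 FPKM in DKO replicates 1 to 3. These values rest on 47, 307 and 478 reads in p21TKO and on 25, 44 and 43 reads in DKO. The groups do not overlap, yet p21TKO replicate 1 lies close to DKO: its 95% exact Poisson interval, which covers counting error only, is 1.12 to 2.03 FPKM, against 0.935 to 1.73 FPKM in DKO replicate 2. Group means were 7.02 ± 4.94 FPKM in p21TKO and 1.05 ± 0.347 FPKM in DKO (SD, n = 3 each), a ratio of 6.67. On the log2(FPKM + 1) scale the p21TKO minus DKO difference of this low gene, understated by the added 1, was 1.70 (SE 0.57, 95% interval 0.35 to 3.05). It did not pass limma over 9538 genes (Benjamini-Hochberg adjusted p = 0.523, unadjusted p = 0.0209). The exact permutation test gave p = 0.1 (two-sided), the smallest that 3 libraries against 3 allow.

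None of the 4 GADD45 genes was called at an adjusted p under 0.05, where 0.0734% of all tested genes were called (7 of 9538). At an unadjusted p under 0.05 Gadd45b was the single member called, against 9.38% of all tested genes, and it ranked 344 of 9538 by p. Groups without overlap were likewise found in 1 of the 4 genes, against 15.4% of all tested genes, and 6.93% of tested genes had every p21TKO library above every DKO library. A count of 1 in 4 is thus not far from the background.

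**Figure D1:**
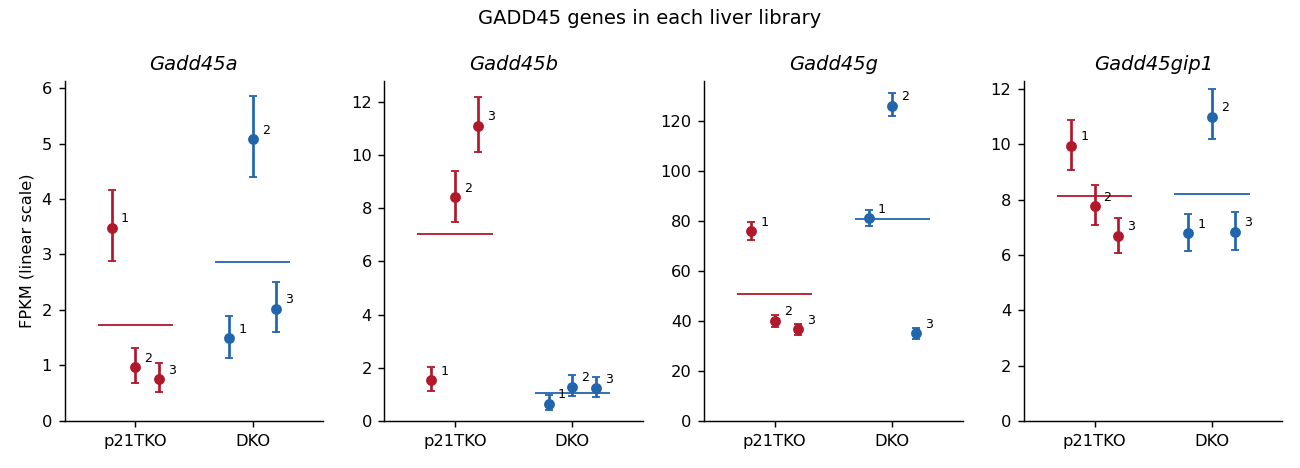
FPKM of the 4 GADD45 genes in each liver library, on a linear axis from 0. Points are libraries with their replicate numbers, bars are 95% Poisson intervals for counting error only, and horizontal lines are group means (p21TKO red, DKO blue). Gadd45b lies at 8.42 and 11.1 FPKM in p21TKO replicates 2 and 3 and between 0.655 and 1.53 FPKM in the other 4 libraries, while the groups overlap for the other genes.

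Which library was left out decided whether Gadd45b was called. Without p21TKO replicate 1 its log2 difference was 2.39 (SE 0.21) and it passed (limma adjusted p = 0.00655), in a fit that called 5.19% of all tested genes (495 of 9538) and 2.36% as higher (225 genes). Gadd45b had rank 36 by p in that fit. Without any one of the other 5 libraries the log2 difference ranged from 1.26 to 1.79 and did not pass (limma adjusted p from 0.539 to 0.94). Y-linked transcripts were present in p21TKO replicate 1 and in DKO replicates 2 and 3 (summed Ddx3y, Eif2s3y, Kdm5d and Uty of 19.3 FPKM, against 19.2 and 23.3 FPKM), and absent from the other 3 libraries. Any fit without p21TKO replicate 1, here and below, thus sets p21TKO libraries without Y-linked transcripts against DKO libraries of both kinds. Calls in such a fit cannot tell the genotype label from Y-linked status. Among the libraries without Y-linked transcripts, the Gadd45b log2 difference was 2.69 (2 p21TKO libraries against 1 DKO library). Among those with them it was 0.17 (1 p21TKO library against 2 DKO libraries). The difference between these effects (libraries with minus without Y-linked transcripts), tested as an interaction in limma after the values were seen, was -2.52 (SE 0.39), with an unadjusted p of 0.00048 and an adjusted p of 0.0942. With a term for Y-linked transcripts the Gadd45b difference came to 1.43, short of the threshold (limma adjusted p = 0.646).

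**Figure D2:**
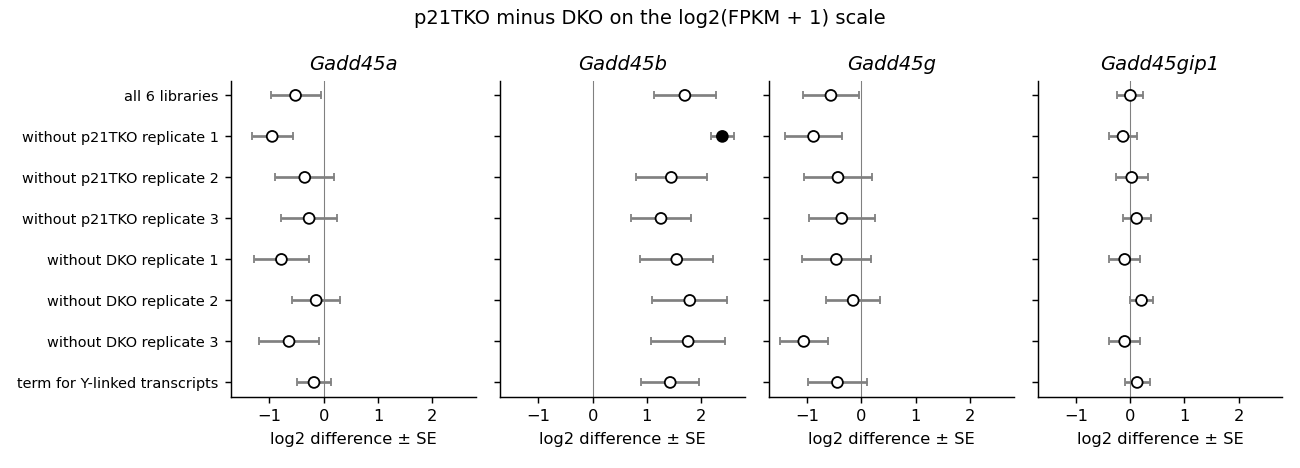
Difference of p21TKO minus DKO in log2(FPKM + 1) for each GADD45 gene, with all 6 libraries, without each library in turn, and with a term for Y-linked transcripts. Bars are SE, and a filled point marks a limma adjusted p under 0.05. The single filled point is Gadd45b without p21TKO replicate 1, at 2.39.

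Gadd45a, the p53-responsive member, overlapped between the groups and was highest in 1 library of each. Gadd45a (ENSMUSG00000036390, chromosome 6, 67035096 to 67037457, minus strand, GRCm38) stood at 3.48, 0.963 and 0.754 FPKM in p21TKO replicates 1 to 3 (119, 39 and 36 reads), against 1.49, 5.08 and 2.02 FPKM in DKO replicates 1 to 3 (63, 193 and 79 reads). p21TKO replicate 1 and DKO replicate 2 were the highest, and p21TKO replicates 2 and 3 were below all DKO libraries. Means were 1.73 ± 1.52 FPKM in p21TKO and 2.86 ± 1.94 FPKM in DKO (SD, n = 3 each). The log2 difference of -0.52 (SE 0.46, 95% interval -1.63 to 0.59) did not pass (limma adjusted p = 0.701, exact permutation p = 0.5). Without DKO replicate 2 it was -0.14, and without p21TKO replicate 1 it was -0.95 (limma adjusted p = 0.195). Within libraries without Y-linked transcripts the difference was -0.42, and within those with them it was 0.07 (interaction 0.49, SE 0.60, limma adjusted p = 0.978, added after the values were seen). Gadd45a overlaps the transcript E230016M11Rik on the opposite strand, which stood at 0.0227 to 0.202 FPKM in p21TKO and 0.246 to 0.585 FPKM in DKO. No source used here says whether strand was used in counting, so reads of the shared stretch may be assigned to either or neither.

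Gadd45g, the abundant member, overlapped between the groups, with its highest and its lowest library both in DKO. Gadd45g (ENSMUSG00000021453, chromosome 13, 51846678 to 51848468, plus strand, GRCm38) stood at 75.9, 40.0 and 36.6 FPKM in p21TKO replicates 1 to 3, against 81.1, 126 and 35.0 FPKM in DKO replicates 1 to 3. With 912 to 3184 reads per library, counting error is small beside this spread: DKO replicates 2 and 3 differ by 3.61 times. Means were 50.8 ± 21.8 FPKM in p21TKO and 80.8 ± 45.6 FPKM in DKO (SD, n = 3 each). The log2 difference of -0.56 (SE 0.52, 95% interval -1.80 to 0.69) did not pass (limma adjusted p = 0.716, exact permutation p = 0.5). It was -1.06 without DKO replicate 3 and -0.15 without DKO replicate 2, and neither passed (limma adjusted p = 0.883 and 0.927). Within libraries without Y-linked transcripts the difference was -1.06, and within those with them it was 0.18, so the direction turned. The interaction of 1.25 (SE 1.03, limma adjusted p = 0.939), added after the values were seen, did not pass.

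Gadd45gip1, the mitochondrial ribosome subunit gene, was the steadiest of the 4, with group means that nearly coincided. Gadd45gip1 (ENSMUSG00000033751, chromosome 8, 84831522 to 84835482, plus strand, GRCm38) stood at 9.96, 7.77 and 6.70 FPKM in p21TKO replicates 1 to 3, against 6.78, 11.0 and 6.84 FPKM in DKO replicates 1 to 3. Its highest library exceeded its lowest by 1.65 times, compared with 17 times for Gadd45b. Means were 8.14 ± 1.66 FPKM in p21TKO and 8.22 ± 2.44 FPKM in DKO (SD, n = 3 each). The log2 difference was 0.0045 with a 95% interval of -0.57 to 0.58 (limma adjusted p = 0.997, exact permutation p = 1), so differences up to that size in either direction are not distinguished.

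The share of Gadd45b in the family was highest in p21TKO replicates 2 and 3. Gadd45a, Gadd45b and Gadd45g together made 80.9, 49.4 and 48.4 FPKM in p21TKO replicates 1 to 3, against 83.3, 133 and 38.2 FPKM in DKO replicates 1 to 3. Gadd45b made 1.89%, 17.0% and 22.9% of that sum in p21TKO, against 0.786%, 0.971% and 3.19% in DKO. Gadd45g made 75.5% to 93.8% in p21TKO and 91.5% to 97.4% in DKO. The ratio of Gadd45b to Gadd45a was 0.438, 8.74 and 14.7 in p21TKO, against 0.441, 0.253 and 0.604 in DKO. A ratio shows unequal levels within a library, and here p21TKO replicate 1 lay among the DKO libraries while p21TKO replicates 2 and 3 lay above 1.

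**Figure D3:**
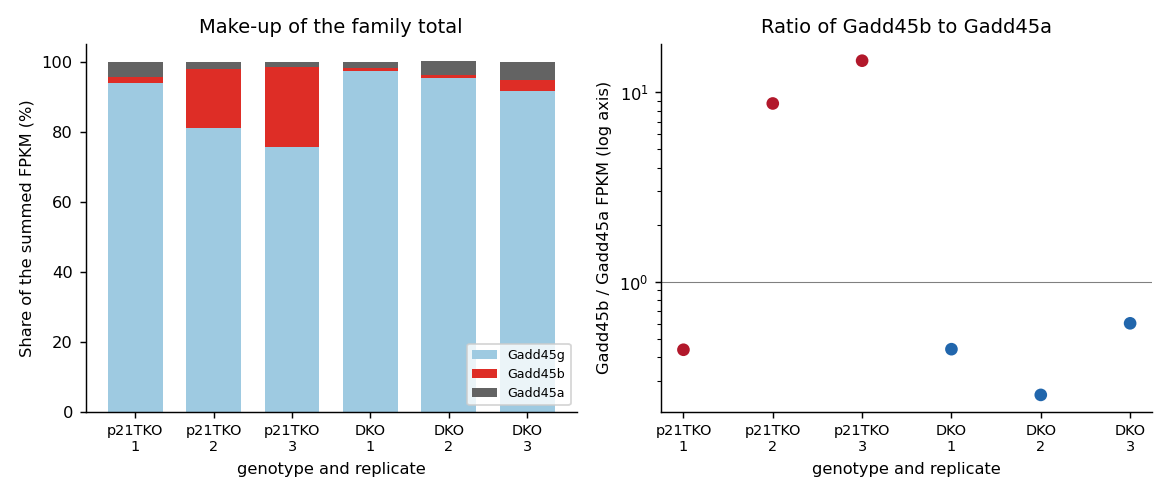
Left, share of Gadd45g, Gadd45b and Gadd45a in their summed FPKM per library, in percent. Right, ratio of Gadd45b to Gadd45a FPKM per library on a log axis, with a line at 1 (p21TKO red, DKO blue). Gadd45b takes 17.0% and 22.9% in p21TKO replicates 2 and 3 and at most 3.19% elsewhere.

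Across the 6 libraries Gadd45a, Gadd45g and Gadd45gip1 varied together, while Gadd45b varied the other way from Gadd45a and Gadd45g and only weakly so from Gadd45gip1. This is given as a description over few libraries. Pearson r of log2(FPKM + 1) was 0.87 between Gadd45a and Gadd45gip1, 0.78 between Gadd45a and Gadd45g, and 0.74 between Gadd45g and Gadd45gip1. It was -0.68, -0.62 and -0.29 between Gadd45b and Gadd45a, Gadd45g and Gadd45gip1. These points share the library sets named above, with p21TKO replicates 2 and 3 apart from the rest. By the same measure the genes most like Gadd45b were Cdkn2aipnl (r = 0.995), Atf6b (r = 0.994), a membrane-bound transcription factor gene of the ER stress response, and Atp1b3 (r = 0.994), which encodes a sodium pump subunit. Atf6b stood at 5.41, 9.50 and 9.82 FPKM in p21TKO, against 4.41, 4.92 and 5.37 FPKM in DKO. Those most like Gadd45a were Parp16 (r = 0.998), Lage3 (r = 0.994) and Srsf10 (r = 0.992), a splicing factor gene. The closest to Gadd45g was Spry4 (r = 0.996), an inhibitor of receptor tyrosine kinase signalling, at 3.16, 1.11 and 1.23 FPKM in p21TKO, against 3.31, 5.48 and 1.03 FPKM in DKO, followed by Lhpp (r = 0.968) and Ttc32 (r = 0.965). Rab5c (r = 0.996), Frmd4b (r = 0.990) and Cib1 (r = 0.987) were closest to Gadd45gip1. With 6 libraries such values are common: 143 genes had r above 0.95 with Gadd45b, 107 with Gadd45a, 57 with Gadd45gip1 and 11 with Gadd45g.

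p21TKO replicate 1 and DKO replicate 2 had the most Gadd45a and Gadd45gip1. They also had the highest summed level of the immediate early genes, which cells transcribe within minutes of a stimulus. Of 11 such genes tested, 5 had higher and 6 lower values in p21TKO and 0 were called (median log2 difference -0.07, against 0.00 over all tested genes). Their summed level was 1173, 104 and 118 FPKM in p21TKO replicates 1 to 3, against 154, 1423 and 61.3 FPKM in DKO replicates 1 to 3. Fos, named after its values were seen, stood at 305, 1.5 and 2.95 FPKM in p21TKO, against 11.4, 303 and 0.823 FPKM in DKO. Gadd45b, although an immediate early gene itself, was at 1.53 and 1.29 FPKM in these libraries. Klf6, a zinc finger factor gene with the smallest p of that list, stood at 3.17 ± 1.14 FPKM in p21TKO and 1.5 ± 0.471 FPKM in DKO (SD, n = 3 each) and did not pass (limma adjusted p = 0.523). Ier3 stood at 4.91 ± 1.05 FPKM in p21TKO and 2.29 ± 2.32 FPKM in DKO (SD, n = 3 each, limma adjusted p = 0.523). These genes did not share the library pattern of the sum. Klf6 was at 1.96, 4.22 and 3.34 FPKM in p21TKO replicates 1 to 3, and at 2.03 FPKM in DKO replicate 2. Ier3 was at 3.93, 4.78 and 6.01 FPKM in p21TKO replicates 1 to 3, and at 4.97 FPKM in DKO replicate 2.

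The other GADD genes and integrated stress response genes showed the same pair of high libraries in part. Of 9 tested, 6 had higher and 3 lower values in p21TKO and 0 were called (median log2 difference 0.14). Ddit3 (GADD153, or CHOP), named after its values were seen, stood at 18.3, 2.77 and 5.44 FPKM in p21TKO, against 2.28, 9.63 and 2.0 FPKM in DKO. Ppp1r15a (GADD34), a phosphatase regulator that ends the stress arrest of translation, likewise named after its values, stood at 14.9, 4.64 and 5.56 FPKM in p21TKO, against 3.08, 14.0 and 4.76 FPKM in DKO. Asns, asparagine synthetase, had the smallest p of the list, at 2.21 ± 2.03 FPKM in p21TKO and 10.4 ± 7.63 FPKM in DKO (SD, n = 3 each, limma adjusted p = 0.523). Ddit4, an inhibitor of mTORC1 signalling, stood at 20.5 ± 10.9 FPKM in p21TKO and 9.87 ± 1.43 FPKM in DKO (SD, n = 3 each, limma adjusted p = 0.536). Without p21TKO replicate 1 Ddit4 was called (log2 difference 1.29, limma adjusted p = 0.0426).

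**Figure D4:**
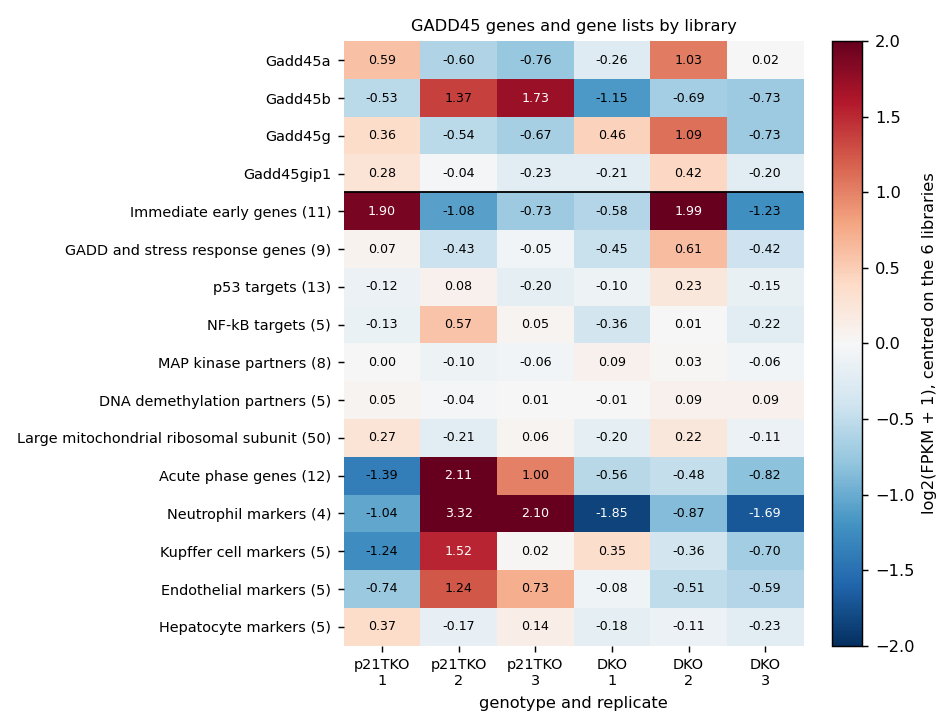
Level of each GADD45 gene (rows above the line) and median level of the tested genes of each list (rows below it, number of genes in brackets) per library, as log2(FPKM + 1) centred on the mean of the 6 libraries. Colours stop at 2 and -2, and each cell prints its value. Immediate early genes reach 1.90 in p21TKO replicate 1 and 1.99 in DKO replicate 2, and neutrophil markers reach 3.32 and 2.10 in p21TKO replicates 2 and 3, where Gadd45b is at 1.37 and 1.73.

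Among the regulators of GADD45 transcription, 4 of 12 tested genes had higher and 8 lower values in p21TKO and 0 were called (median log2 difference -0.06). Smad3, a TGF-beta signal transducer, had the smallest p, at 1.75 ± 0.587 FPKM in p21TKO and 3.16 ± 1.08 FPKM in DKO (SD, n = 3 each, limma adjusted p = 0.523). Ppara, the fatty acid receptor, stood at 10.5 ± 2.28 FPKM in p21TKO and 22.1 ± 11.0 FPKM in DKO (SD, n = 3 each, limma adjusted p = 0.536). Foxo3, a forkhead factor known to activate Gadd45a, stood at 10.7, 3.83 and 1.99 FPKM in p21TKO, against 9.59, 10.8 and 7.63 FPKM in DKO (limma adjusted p = 0.567). p21TKO replicates 2 and 3, which had the least Gadd45a, also had the least Foxo3, and without p21TKO replicate 1 Foxo3 was called lower (log2 difference -1.43, limma adjusted p = 0.0365). These 2 libraries lie apart from the rest in many genes, and a link of Foxo3 to the Gadd45a level was not tested. NF-kB targets had 4 of 5 tested genes with higher values (median 0.29) and 0 called. The first by p were Icam1, an adhesion molecule gene (5.81 ± 4.53 FPKM in p21TKO and 2.11 ± 0.379 FPKM in DKO, SD, n = 3 each, limma adjusted p = 0.625), and Bcl3, an IkB family gene (18.3 ± 3.95 FPKM in p21TKO and 13.3 ± 6.58 FPKM in DKO, SD, n = 3 each, limma adjusted p = 0.647). Icam1 was called without p21TKO replicate 1 (log2 difference 1.53, limma adjusted p = 0.0238).

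Targets of CAR, the xenobiotic receptor whose activation induces Gadd45b in mouse liver, differed among themselves in which library was highest. Of 5 tested, 2 had higher and 3 lower values in p21TKO and 0 were called (median log2 difference -0.35). Their summed level was 2.38, 69.7 and 44.1 FPKM in p21TKO, against 1029.8, 3.94 and 4.49 FPKM in DKO. The highest sum, in DKO replicate 1, the library with the least Gadd45b, held 771 FPKM of Cyp2a4. Cyp2b10 was instead highest in p21TKO replicates 2 and 3, the libraries with the most Gadd45b. Cyp2b10 stood at 0.171, 4.15 and 7.40 FPKM in p21TKO, against 3.31, 0.396 and 0.107 FPKM in DKO (limma adjusted p = 0.682). Cyp2a4 stood at 0.446, 11.1 and 15.4 FPKM in p21TKO, against 771, 3.13 and 1.22 FPKM in DKO (limma adjusted p = 0.818). The libraries without Y-linked transcripts were the higher ones for both genes. A part of CAR in the Gadd45b difference was not tested.

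Cdkn1a, whose product binds GADD45 proteins, had its highest values in the same libraries as Gadd45b, which carry the p21TKO label. It stood at 1.41, 11.0 and 6.50 FPKM in the libraries labelled p21TKO, against 0.761, 1.79 and 0.405 FPKM in those labelled DKO. With all libraries Cdkn1a was not called (limma adjusted p = 0.523), whereas leaving out p21TKO replicate 1 gave a call (log2 difference 2.32, limma adjusted p = 0.0224). Which exons the mutation removes is not stated, so these reads do not check it, and every direction rests on the labels. Of the 4 cell cycle partners 2 were tested, Cdkn1a (log2 difference 1.66) and Pcna (0.40). Both had higher values in p21TKO and 0 were called. Their median log2 difference of 1.03 rests in part on Cdkn1a, by label the gene in which the genotypes differ. Pcna, the DNA polymerase clamp gene, stood at 12.5 ± 3.51 FPKM in p21TKO and 9.04 ± 0.892 FPKM in DKO (SD, n = 3 each, limma adjusted p = 0.58). Cdk1 and Ccnb1 were under a mean of 1 FPKM and were not tested, at 0.443 FPKM or less and 0.0987 FPKM or less in every library. The p53 targets, 5 of 13 tested with higher and 8 with lower values in p21TKO, had 0 called (median log2 difference -0.05). Beside Cdkn1a, Perp, a desmosome and apoptosis gene, had the smallest p at 38.7 ± 10.3 FPKM in p21TKO and 51.5 ± 0.567 FPKM in DKO (SD, n = 3 each, limma adjusted p = 0.587).

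None of the kinases that GADD45 proteins act on was called. Of 8 tested MAP kinase partners, 2 had higher and 6 lower values in p21TKO and 0 were called (median log2 difference -0.15). Map3k4, the kinase that GADD45 proteins bind directly, stood at 1.03, 1.25 and 1.22 FPKM in p21TKO, against 1.5, 1.35 and 1.53 FPKM in DKO (log2 difference -0.19, SE 0.14, limma adjusted p = 0.641). Mapk9 (JNK2) stood at 5.70 ± 0.658 FPKM in p21TKO and 6.91 ± 0.162 FPKM in DKO (SD, n = 3 each, limma adjusted p = 0.593). Both had every p21TKO library below every DKO library, as did 8.49% of tested genes. Mapk14 (p38 alpha) stood at 21.7 ± 3.73 FPKM in p21TKO and 17.4 ± 2.72 FPKM in DKO (SD, n = 3 each, limma adjusted p = 0.64). Of the DNA demethylation partners, 5 were tested, 3 with higher and 2 with lower values, and 0 were called (median log2 difference 0.07). Ercc5, the XPG repair endonuclease gene, stood at 1.76 ± 0.138 FPKM in p21TKO and 2.35 ± 0.223 FPKM in DKO (SD, n = 3 each, limma adjusted p = 0.537). Tet3, which oxidises methylcytosine, stood at 0.834 ± 0.248 FPKM in p21TKO and 1.27 ± 0.0769 FPKM in DKO (SD, n = 3 each, limma adjusted p = 0.547).

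Genes of the large mitochondrial ribosomal subunit, to which the Gadd45gip1 product belongs, followed its library pattern in part. Of 50 tested genes, 35 had higher and 15 lower values in p21TKO and 0 were called (median log2 difference 0.07). Their centred median was 0.27, -0.21 and 0.06 in p21TKO replicates 1 to 3, against -0.20, 0.22 and -0.11 in DKO replicates 1 to 3, so p21TKO replicate 1 and DKO replicate 2 were the highest, as for Gadd45gip1. Mrpl20 had the smallest p, at 38.6 ± 3.20 FPKM in p21TKO and 24.9 ± 9.19 FPKM in DKO (SD, n = 3 each, limma adjusted p = 0.525), followed by Mrpl19 at 1.97 ± 0.418 FPKM in p21TKO and 1.48 ± 0.0826 FPKM in DKO (SD, n = 3 each, limma adjusted p = 0.597). Of 3 ribosome partners of the Gadd45gip1 product tested, 2 had higher and 1 lower values and 0 were called (median log2 difference 0.27). Oxa1l, which inserts proteins into the inner membrane at the ribosome exit, stood at 12.6 ± 1.65 FPKM in p21TKO and 10.3 ± 1.77 FPKM in DKO (SD, n = 3 each, limma adjusted p = 0.647). Mrpl23, an exit tunnel protein gene, stood at 8.60 ± 2.20 FPKM in p21TKO and 6.92 ± 2.18 FPKM in DKO (SD, n = 3 each, limma adjusted p = 0.714).

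The p21TKO libraries with high Gadd45b also had the highest summed levels of acute phase and neutrophil transcripts, though not of every gene in these lists. In bulk liver, fewer or more cells of a type and less or more RNA per cell cannot be told apart. All 12 acute phase genes tested had higher mean values in p21TKO and 0 were called (median log2 difference 1.17), yet their summed level was 6335, 62334 and 29618 FPKM in p21TKO replicates 1 to 3, against 9846, 11699.7 and 9385 FPKM in DKO. Socs3, a feedback inhibitor of cytokine signalling, stood at 2.82, 25.8 and 20.4 FPKM in p21TKO, against 2.71, 5.56 and 4.90 FPKM in DKO (limma adjusted p = 0.574). Saa3 stood at 3.09, 21.6 and 3.18 FPKM in p21TKO, against 2.04, 3.25 and 1.62 FPKM in DKO (limma adjusted p = 0.577). Saa1 and Saa2, named after their values were seen, were likewise highest in p21TKO replicate 2. In p21TKO replicate 3 they stood at 176 and 86.0 FPKM, below the 399 and 179 FPKM of DKO replicate 2. Without p21TKO replicate 1, 6 of the 12 acute phase genes were called higher, among them Socs3 (log2 difference 2.19, limma adjusted p = 0.0161), as were all 4 neutrophil markers tested, such as S100a8 (log2 difference 4.62, limma adjusted p = 0.0158) and S100a9 (log2 difference 3.98, limma adjusted p = 0.0161). That fit called 2.36% of all tested genes higher (225 of 9538). The 5 neutrophil markers summed to 23.7 to 532 FPKM in p21TKO and 9.77 to 27.0 FPKM in DKO, and 4 of 4 tested had higher mean values with 0 called in the fit of all libraries. The 5 endothelial markers, all with higher mean values, summed to 5.13 to 49.7 FPKM in p21TKO and 7.30 to 13.0 FPKM in DKO. The 5 Kupffer cell markers, also all with higher mean values, summed to 15.3 to 152 FPKM in p21TKO and 24.4 to 59.9 FPKM in DKO. In each of these lists p21TKO replicate 2 was the highest library. None of these endothelial and Kupffer cell markers was called with all libraries. Without p21TKO replicate 1 the endothelial genes Pecam1 (log2 difference 1.49, limma adjusted p = 0.0146) and Lyve1 (log2 difference 1.67, limma adjusted p = 0.0432) and the Kupffer cell gene Marco (log2 difference 3.58, limma adjusted p = 0.0131) were called higher. The remaining endothelial and Kupffer cell markers were not called there. The centred median of the Kupffer cell markers was 1.52 in p21TKO replicate 2 but 0.02 in p21TKO replicate 3, against 0.35 in DKO replicate 1. Hepatocyte markers were abundant in every library, the labelled tissue (48324 to 52378 FPKM summed in p21TKO and 36476 to 46642 FPKM in DKO). Stellate markers summed to 29.5 to 39.1 FPKM in p21TKO and 16.0 to 27.7 FPKM in DKO, cholangiocyte markers to 1.42 to 5.34 FPKM in p21TKO and 0.477 to 0.901 FPKM in DKO, and lymphocyte markers to 0.144 to 0.665 FPKM in p21TKO and 1.07 to 1.72 FPKM in DKO. Of these markers, the lymphocyte genes Cd3e and Cd79a were at 0 in p21TKO replicate 2 and Ms4a1 in p21TKO replicate 3. The neutrophil gene Ly6g, too low to test, stood at 0.110, 1.29 and 0.0785 FPKM in p21TKO, against 0.0442, 0 and 0 FPKM in DKO. Unlike the tested neutrophil markers, it was lower in p21TKO replicate 3 than in p21TKO replicate 1. The neutrophil gene Ngp was at 0 in DKO replicate 3, while no marker was at 0 in all 6 libraries. The part of these cell types in the Gadd45b difference was not tested.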

How the data were processed

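The authors deposited FPKM per gene for 6 polyA liver RNA libraries. Per the labels' protocols, TRIzol was used for RNA and a NEBNext Ultra RNA kit for the libraries. The tools named, without roles, per the submitters' processing notes are HISAT2 2.0.5 with fastp, featureCounts 1.5.0-p3, CASAVA 1.8 and DESeq2 1.20.0. Those notes name human builds (GRCh38, hg38) for a table of mouse gene identifiers, so which build was used is unsettled. Positions, exon lengths and overlaps are from GENCODE M21 (GRCm38), matched by identifier for 55480 of 55573 genes.

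Reads behind a value were recovered from FPKM and union exon length: 99.3% of values in each library were whole within 0.02 reads. Poisson intervals cover counting error only. For the 9538 genes with a mean of at least 1 FPKM, log2(FPKM + 1) values entered a two-sided trend fit in limma 3.58.1 under R 4.3.3, with Benjamini-Hochberg adjustment over all of them and an adjusted p under 0.05 called. The fit was tested on simulated data. Transcripts of other genes with near-identical stretches were looked for with BLAST 2.17.0. One overlap is not reported here. Tables and exact permutation tests were made in Python 3.11.15.

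The members, the 12 gene lists and the 8 marker lists were chosen with earlier results of these data known. From each gene list other than the marker lists the text names the 2 tested genes with the smallest p (3 for MAP kinase partners and regulators), and for each member the 3 named protein-coding genes with the highest Pearson correlation. Also named are the deleted genes, the Y-linked genes, an overlapping transcript and the cell cycle partners too low to test. Single markers are named where they were absent from a library or called when a library was left out. Other genes named outside this rule are marked. Promoter windows were matched by symbol for 3 of 4 members (Gadd45gip1 was not matched). The alternatives were other pseudocounts (0.1 and 0.5), filters, scalings, variance models, limma voom on recovered reads, a term for Y-linked transcripts, a replicate block and leaving out each library. Those added later are marked as chosen after the values were seen.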

Additional observations from a re-analysis of the deposited data

How the results depend on the processing

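With 3 libraries a group, the 95% intervals of the log2 differences ran from -1.63 to 0.59 for Gadd45a, 0.35 to 3.05 for Gadd45b, -1.80 to 0.69 for Gadd45g and -0.57 to 0.58 for Gadd45gip1, and sizes within them are not distinguished. The SE was of like size for Gadd45g (0.52, on 912 to 3184 reads a library) and Gadd45a (0.46, on 36 to 193 reads). Leaving out each library in turn gave log2 differences (p21TKO minus DKO) from -0.95 to -0.14 for Gadd45a, 1.26 to 2.39 for Gadd45b, -1.06 to -0.15 for Gadd45g and -0.13 to 0.21 for Gadd45gip1. Gadd45b was called without p21TKO replicate 1 (2.39), which brought the members called to 1 (0 to 1 over these fits). The Gadd45gip1 difference of 0.0045 turned to -0.13 without p21TKO replicate 1, -0.10 without DKO replicate 1, -0.10 without DKO replicate 3 and -0.02 with limma voom on recovered reads, all within its SE. Over the other alternatives Gadd45a ranged from -0.93 to -0.18, Gadd45b from 1.43 to 2.41, Gadd45g from -0.57 to -0.44 and Gadd45gip1 from -0.02 to 0.13, with 0 members called. The smallest adjusted p for Gadd45b among these was 0.0932, with array quality weights. Gadd45a and Gadd45b are not in the fit of genes with a mean of at least 5 FPKM.

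Over all genes, 7 were called in the main fit, 1 with no filter on low values, 4 at a mean of at least 5 FPKM, 21 with array quality weights, 2 with limma voom, and 1 to 495 when a library was left out. Genes called per list, 0 in the main fit, ranged when a library was left out from 0 to 1 for cell cycle partners, GADD45 regulators, stress response genes, p53 targets and NF-kB targets, and from 0 to 6 for acute phase genes. For the cell cycle partners and the p53 targets that 1 gene was Cdkn1a in each case, by label the gene in which the genotypes differ. The cause of these shifts was not tested. With the replicate number as a block, limma called 0 genes (588 at an unadjusted p under 0.05) and the Gadd45b difference of 1.70 had an adjusted p of 0.702. No label says that the numbers pair the samples. The correlations of same-numbered libraries' deviations from their group means were -0.44, -0.49 and -0.07. With so few libraries these values cannot show whether a pairing exists.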

Other observations

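Several p38 kinase genes and NF-kB targets fell under the mean of 1 FPKM needed for the test, and their levels are given here with no test, chosen after the values were seen. Mapk13 (p38 delta) stood at 0.0820, 1.49 and 2.01 FPKM in p21TKO replicates 1 to 3, against 0.0264, 0.0590 and 0 FPKM in DKO replicates 1 to 3. The libraries with the most Mapk13 were thus p21TKO replicates 2 and 3, as for Gadd45b. Mapk11 (p38 beta) stood at 0.0537, 0.287 and 0.371 FPKM in p21TKO, against 0.144, 0.209 and 0.187 FPKM in DKO. Mapk12 (p38 gamma) stood at 0.271, 0.973 and 0.787 FPKM in p21TKO, against 0.394, 0.452 and 0.367 FPKM in DKO. Tnfaip3, the A20 inhibitor of NF-kB signalling, stood at 1.16, 2.38 and 0.864 FPKM in p21TKO, against 0.219, 0.592 and 0.367 FPKM in DKO, with every p21TKO library above every DKO library. Relb, an NF-kB subunit gene, stood at 0.545, 1.10 and 0.495 FPKM in p21TKO, against 0.332, 0.299 and 0.220 FPKM in DKO, again without overlap. Nfkbie, an inhibitor gene of NF-kB, stood at 0.407, 1.23 and 1.25 FPKM in p21TKO, against 0.642, 0.794 and 0.488 FPKM in DKO, and overlapped. Of the genes that did enter the test, 6.93% had every p21TKO library above every DKO library.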
